A study of Rattus norvegicus with 26 samples.

Results

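The miR-17-92 cluster and its X-linked copy, the miR-106a-363 cluster, are tandem microRNA (miRNA) genes whose products fall into 4 seed groups. Their members were taken by name from the arrays: rno-miR-17-5p, rno-miR-20a and rno-miR-20b-5p of the 17/20 group, rno-miR-18a of the 18 group, rno-miR-19a and rno-miR-19b of the 19 group, and rno-miR-92a of the 92 group. These are 7 of the 677 miRNAs on the array, and all 7 are among the 144 that entered the tests. The study removed part of the liver of male rats (partial hepatectomy, PH) and measured miRNA in the right lobes that remained, after removal of the left lateral lobe (1/3 PH) or after the larger 2/3 PH. The normal livers came from 3 rats that had no PH, although their protocol label reads sham. Each operation was sampled at 6, 12, 24 and 36 h. The arrays cover 2 rats at 6 h after 1/3 PH and 3 rats in every other group, 26 arrays in all, 1 rat each. The paper describes 3 rats per operation and hour and the exclusion of 1 array of 1/3 PH for poor quality, without naming its hour. Hours follow the sample titles, since the source names of some arrays give an hour or 2 more.

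A miRNA recognises target transcripts mainly through its seed, so members with the same seed share most predicted targets and members with different seeds do not. The miR-17-92 cluster is transcribed as a single precursor under control of cell-cycle factors such as Myc and E2F, and it is known for promoting proliferation in development and in tumours. In the regenerating liver, hepatocytes leave quiescence and replicate their DNA within the days after resection.

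The mature sequences are shown because the seed, bases 2 to 8 and here in capitals, defines the groups that are compared. They are given 5′ to 3′ as RefSeq annotates them on the rat build GRCr8, and all 7 members were matched there. The 17/20 group shares the seed AAAGUGC.
rno-miR-17-5p: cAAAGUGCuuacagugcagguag
rno-miR-20a: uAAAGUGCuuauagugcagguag
rno-miR-20b-5p: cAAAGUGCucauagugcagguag
The 18 group differs from it inside the seed.
rno-miR-18a: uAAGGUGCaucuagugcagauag
The 19 group shares a seed of its own, and so does the 92 group.
rno-miR-19a: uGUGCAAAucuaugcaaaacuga
rno-miR-19b: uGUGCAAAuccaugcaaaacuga
rno-miR-92a: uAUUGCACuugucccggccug

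With positions counted from 1 at the 5′ end and the base of the first-named miRNA first, rno-miR-19a and rno-miR-19b differ by U11C alone. Between rno-miR-17-5p and rno-miR-20a the differences are C1U and C12U, between rno-miR-17-5p and rno-miR-20b-5p they are U10C and C12U, and between rno-miR-20a and rno-miR-20b-5p they are U1C and U10C. The differences between rno-miR-20a and rno-miR-18a are A4G, U9A, A11C and G20A, of which A4G lies in the seed. Whether probes for such similar sequences take up each other's miRNA was not tested, so levels are compared between groups of rats. Log2 differences between members on the same array are given only to compare groups. They do not measure the relative amounts of the members. The miR-17-92 cluster holds 6 hairpins within 785 bases of the plus strand, at chr15:98587848-98588632. The miR-106a-363 cluster holds 5 hairpins within 871 bases of the minus strand, at chrX:137342777-137343647. rno-miR-18a, rno-miR-19a and rno-miR-20a come from chromosome 15 alone and rno-miR-20b-5p from the X chromosome alone. The other 3 members, rno-miR-17-5p, rno-miR-19b and rno-miR-92a, have the same mature sequence at both loci, so the array cannot tell apart which cluster they came from.

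Signals are in scaled signal units: background-subtracted fluorescence summed over a miRNA's probes and divided by a scale factor of its array. Signals below the faintest probe well above background on an array were set to that probe's signal, called the floor of the array, and the number of arrays per group limits the precision. The scanner software detected rno-miR-19b, rno-miR-20a, rno-miR-20b-5p and rno-miR-92a on 26 of 26 arrays, rno-miR-17-5p and rno-miR-19a on 24, and rno-miR-18a on 14. At the floor were 10 arrays for rno-miR-17-5p, 16 for rno-miR-18a and 4 for rno-miR-19a. 1 of the 2 probes of rno-miR-17-5p and 1 of the 2 of rno-miR-18a were above the floor on 0 arrays, so each of these values rests on a single probe. Total signal over detected miRNAs was 58044 to 94981 units on 25 arrays, with 118 to 155 miRNAs detected. Replicate 2 at 12 h after 1/3 PH stood apart with 17795 units and 91 miRNAs, and without it the counts of member calls given in the tests were 10 in place of 7 for 2/3 PH against normal liver, 9 in place of 7 between operations and 12 in place of 10 for late against early hours. For this and later fits with an array left out, calls among all tested miRNAs are not given. Whether those changed alike was not tested.

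**Figure D1:**
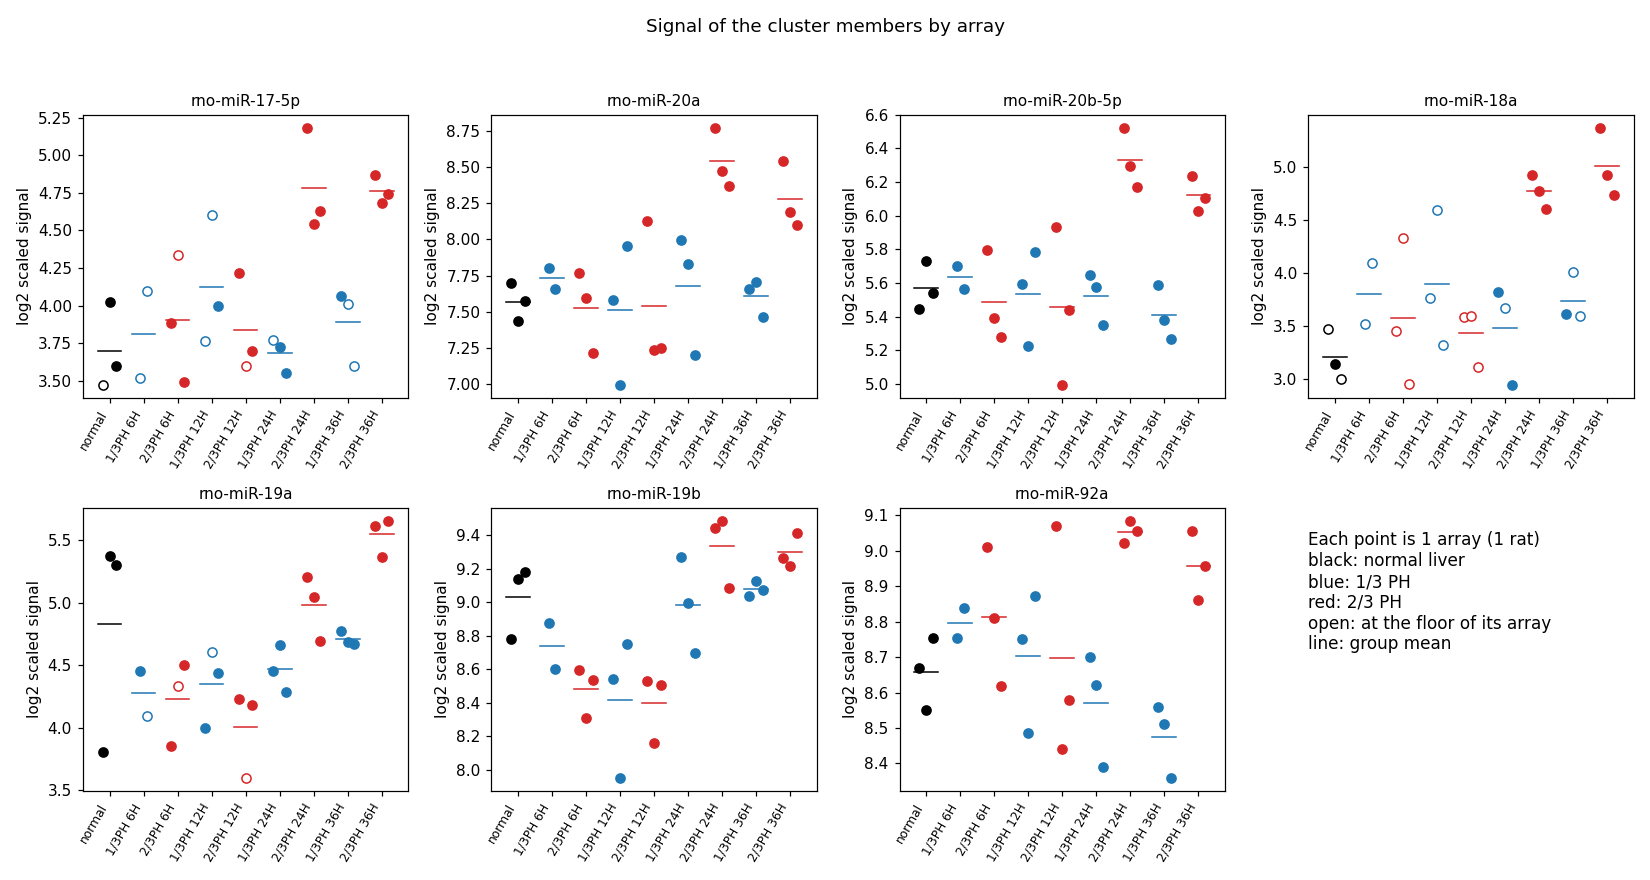
Log2 scaled signal of each member on each array, by group, with 1 point per rat, open points at the floor and lines at group means. All arrays of 24 and 36 h after 2/3 PH lie above all normal livers for the 17/20 members, rno-miR-18a and rno-miR-92a.

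The 17/20 group was highest at 24 and 36 h after 2/3 PH. For rno-miR-20a, from the chromosome 15 cluster, normal livers gave 207, 174 and 191 units, 2/3 PH gave 218, 194 and 148 at 6 h, 279, 150.4 and 152 at 12 h, 437, 355 and 331 at 24 h and 373, 292 and 274 at 36 h. The smaller operation gave 224 and 202 at 6 h, 191, 128 and 248 at 12 h, 255, 228 and 147 at 24 h and 202, 209 and 176 at 36 h. The 3 arrays at 24 h after 2/3 PH were above all arrays of the other groups except those at 36 h after 2/3 PH, where replicate 1 overlapped them. Mean log2 levels were 8.54 ± 0.21 (SD, n = 3) and 8.28 ± 0.23 in those groups, and the other 7 groups lay between 7.51 ± 0.48 and 7.73 ± 0.10, without differences beyond their spread.

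rno-miR-20b-5p, the 17/20 member found in the X-linked cluster alone, gave 43.5, 53.1 and 46.4 units in normal liver and, after 2/3 PH, 55.6, 41.9 and 38.9 at 6 h, 61.1, 31.9 and 43.4 at 12 h, 92, 78.7 and 72.2 at 24 h and 75.5, 65.3 and 68.8 at 36 h. In the 1/3 PH groups it gave 52 and 47.3 at 6 h, 48.2, 37.3 and 55 at 12 h, 50.1, 47.7 and 40.7 at 24 h and 48, 41.7 and 38.4 at 36 h. All 6 late arrays after 2/3 PH were above all 20 others. Within each array, the log2 difference of rno-miR-20b-5p from rno-miR-20a had group means of -1.98 to -2.21, against -2.00 ± 0.27 (SD, n = 3) in normal liver.

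rno-miR-17-5p, which both loci encode and whose value rests on 1 probe, gave 11.1, 16.2 and 12.1 units in normal liver and 14.8, 20.2 and 11.2 at 6 h, 18.6, 12.1 and 13 at 12 h, 36.4, 23.3 and 24.7 at 24 h and 29.2, 25.7 and 26.8 at 36 h after 2/3 PH. After 1/3 PH it gave 11.5 and 17.1 at 6 h, 13.6, 24.3 and 16 at 12 h, 13.6, 13.2 and 11.7 at 24 h and 16.8, 16.1 and 12.1 at 36 h. The late 2/3 PH arrays were above normal liver and above the 1/3 PH arrays of the same hour in 6 of 6. The value of 24.3 at 12 h after 1/3 PH is the raised floor of the faint array described above, where the miRNA was not detected, and it lies inside the range of 24 h after 2/3 PH.

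rno-miR-18a, from chromosome 15 alone, was near the limit of detection except late after 2/3 PH. Normal livers gave 11.1, 8.86 and 8.03 units, with detection on 2 of 3 arrays and floors at 11.1 and 8.03. After 2/3 PH it gave 11, 20.2 and 7.76 at 6 h, 12.1, 12.1 and 8.65 at 12 h, 30.5, 27.5 and 24.5 at 24 h and 41.5, 30.4 and 26.7 at 36 h, with detection on 0, 1, 3 and 3 arrays. After 1/3 PH it gave 11.5 and 17.1 at 6 h, 13.6, 24.3 and 10 at 12 h, 14.2, 12.8 and 7.72 at 24 h and 12.2, 16.1 and 12.1 at 36 h, with detection on 0, 1, 3 and 1 arrays. All 6 late 2/3 PH arrays were above all 20 others, by 24.5 units at the least against 24.3, and 16 of those 20 values are floors. Set against the floors at 6 h after 2/3 PH, where it was not detected, rno-miR-18a was at least 2.28-fold higher at 24 h and at least 2.70-fold higher at 36 h.

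For rno-miR-19b of the 19 group, encoded at both loci, normal livers gave 439.9, 564 and 581 units and 2/3 PH gave 387, 317 and 372 at 6 h, 369.8, 286 and 364 at 12 h, 697, 718 and 543 at 24 h and 615, 595 and 682 at 36 h. The 1/3 PH values were 470.0 and 389 at 6 h, 373, 248 and 432 at 12 h, 619, 509.9 and 415 at 24 h and 525, 559 and 539.5 at 36 h. The 6 and 12 h arrays after 2/3 PH and the 12 h arrays after 1/3 PH were below all normal livers, whereas at 24 h both operations overlapped normal liver. rno-miR-19a ran from 12.1 units, a floor at 12 h after 2/3 PH, to 50.3 at 36 h after 2/3 PH. Its normal livers spread widely, at 13.9, 41.5 and 39.4, so that their range takes in all values of 1/3 PH and of 24 h after 2/3 PH.

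For rno-miR-92a, the single 92 member and encoded at both loci, normal livers gave 407, 375 and 431 units and 2/3 PH gave 516, 448 and 393 at 6 h, 537, 348 and 382 at 12 h, 519.7, 543 and 532 at 24 h and 532, 465 and 497 at 36 h. Its 1/3 PH values were 431 and 458 at 6 h, 430.5, 359 and 469 at 12 h, 416, 394 and 335 at 24 h and 377, 365 and 328 at 36 h. Late 2/3 PH arrays were above normal liver in 6 of 6, but the early groups reached the same height, with 537 units on replicate 1 at 12 h after 2/3 PH.

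Differences were tested with limma in a single fit of all arrays, and a member was called at an adjusted p under 0.05. At 24 h after 2/3 PH 4 of 7 members rose and 0 fell, against 18.1% of all 144 miRNAs called in either direction. These were rno-miR-18a (log2 1.57 ± 0.33 SE, adjusted p = 0.00685), rno-miR-17-5p (2.12-fold, log2 1.08 ± 0.25, adjusted p = 0.0106), rno-miR-20b-5p (1.69-fold, 0.76 ± 0.20, adjusted p = 0.0129) and rno-miR-20a (1.96-fold, 0.97 ± 0.26, adjusted p = 0.0138), each higher than normal liver in 3 of 3 rats. No fold is given for rno-miR-18a, since 2 of its 3 normal values are floors and its size depends on them, with log2 2.15 at a floor of 1 unit and 5.26 with the deposited table. rno-miR-92a was at log2 0.40 ± 0.15 (adjusted p = 0.0667), rno-miR-19b at 0.30 ± 0.19 (adjusted p = 0.360) and rno-miR-19a at 0.16 ± 0.31 (adjusted p = 0.821), and with scaling by the 75th percentile over all probes these 3 turned to -0.06, -0.16 and -0.31, as rno-miR-19a did without replicate 1 of normal liver, to -0.36. The members' median was log2 0.76, against 0.05 over all 144. In bulk liver, a change in the share of a cell type and a change in RNA per cell cannot be told apart.

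At 36 h after 2/3 PH 2 of 7 members rose and 0 fell, against 18.8% of all 144. rno-miR-18a was above normal liver by log2 1.80 ± 0.33 (adjusted p = 0.000677, against the same floors, with 2.39 at a floor of 1 unit and 5.23 with the deposited table) and rno-miR-17-5p 2.09-fold (1.07 ± 0.25, adjusted p = 0.00401), each in 3 of 3 rats. rno-miR-20a was at log2 0.71 ± 0.26 (adjusted p = 0.0576), rno-miR-20b-5p at 0.55 ± 0.20 (adjusted p = 0.0555) and rno-miR-19a at 0.72 ± 0.31 (adjusted p = 0.104), which became 0.21 without replicate 1 of normal liver. rno-miR-92a was at 0.30 ± 0.15 and rno-miR-19b at 0.26 ± 0.19. The members' median was log2 0.71, against 0.06 over all 144.

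Slide and scan day were read from the file headers. Within scan day 1, where 3 arrays of 24 h after 2/3 PH could be set against 1 normal liver, the log2 differences were 1.31 for rno-miR-17-5p, 1.30 for rno-miR-18a, 0.84 for rno-miR-20a and 0.89 for rno-miR-20b-5p, and they were 1.18 for rno-miR-19a, whose value on that normal liver is its lowest of the 3, 0.56 for rno-miR-19b and 0.39 for rno-miR-92a. Within slide 3, with 2 arrays of 36 h after 2/3 PH and 1 normal liver, they were 1.18 for rno-miR-17-5p, 2.15 for rno-miR-18a, 0.79 for rno-miR-20a, 0.60 for rno-miR-20b-5p, 0.19 for rno-miR-19a, 0.06 for rno-miR-19b and 0.21 for rno-miR-92a, and scan day 2 holds the same 3 arrays. Within scan day 3, with 1 array each, they were 0.72, 1.59, 0.66, 0.37, 0.28, 0.28 and 0.41 in the same order. With slide as a random block, rno-miR-18a was at log2 1.57 and 1.83 at 24 and 36 h and rno-miR-17-5p at 1.08 and 1.07, and with scan day as a fixed block they were at 1.39 and 1.87 and at 1.07 and 1.08, with calls in each. With scan day as a block 3 members were called at 24 h, without rno-miR-20b-5p, and 4 at 36 h, against 19 and 33 of all 144. With slide as a fixed block, which could be fitted at 36 h and not at 24 h, 1 was called, rno-miR-18a at log2 2.15, against 12 of all 144.

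The calls at 24 h depended on scaling, on background correction and on a single rat. They numbered 0 of 7 without scaling, with the 75th percentile over all probes and with normexp background correction, where 0 of all 144 were called either. They numbered 2 with the software's total gene signal, against 18 of all 144, and 1 (rno-miR-18a) without replicate 1 of 24 h after 2/3 PH. At 36 h the count was 1 without scaling, 0 with the 75th percentile over all probes and with normexp correction, 1 with the total gene signal or the deposited table, and 4 without replicate 2 of normal liver, replicate 2 or 3 of 12 h after 1/3 PH, or replicate 1 of 12 h after 2/3 PH. Of all 144, 1 was called at 36 h without scaling, 0 with the 75th percentile over all probes and 3 with normexp correction. There were 24 with the total gene signal and 15 with the deposited table. The median of all 144 miRNAs moved at 24 h from 0.05 to -0.41 with scaling by the 75th percentile over all probes, and at 36 h from 0.06 to 0.64 with normexp background correction. A factor per array moves the members and that median alike, so counts of members above it can change only with the other settings. They were 7 of 7 at both hours as reported, with quantile normalization and with the deposited table, and 6 at 24 h and 4 at 36 h with normexp correction.

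At 6 h after 2/3 PH 0 of 7 members were called by limma, as were 0% of all 144, with 1 member and 15 of all at an unadjusted p under 0.05. At 12 h 1 of 7 was called, rno-miR-19b, against 6.94% of all 144, and 0 rose. It fell by 0.63 ± 0.19 on the log2 scale (adjusted p = 0.0454), in 3 of 3 rats. rno-miR-19a was at log2 -0.82 ± 0.31 (adjusted p = 0.115). At 6 h rno-miR-19b was at -0.55 ± 0.19 and rno-miR-19a at -0.60 ± 0.31. For rno-miR-19a, 3 of 3 values at 6 h and 2 of 3 at 12 h lay above replicate 1 of normal liver. Of these, the value of replicate 2 at 6 h was a floor, 20.2 units, where the miRNA was not detected. Its signal before the floor was set lay below that normal liver. Without replicate 1 of normal liver rno-miR-19a was called at both hours, at -1.11 (adjusted p = 0.00748) and -1.34 (adjusted p = 0.000879). The other 5 members lay between -0.12 and 0.22 at 12 h. The call of rno-miR-19b was lost in 9 of 15 alternatives and without any 1 of 17 of the 26 arrays, with adjusted p from 0.0208 to 0.842 over the alternatives and from 0.0136 to 0.271 as arrays were left out. Within scan day 1 rno-miR-19b was at -0.44 and within scan day 3, which here is slide 2, at -0.63. With slide as a random block it was at -0.69, and with scan day as a block at -0.65, where the call was lost. For rno-miR-19a the differences were 0.29 at 6 h and 0.11 at 12 h within scan day 1 and -0.88 and -1.20 within scan day 3. Both values of scan day 1 include a floor, on replicate 2 of each hour, which raises them. The data therefore cannot settle whether the sign differed between scan days.

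After 1/3 PH no member passed the test against normal liver at any hour, by limma. At 6 h 0 of 7 were called against 0% of all 144, at 12 h 0 of 7 against 4.17%, at 24 h 0 of 7 against 0.694% and at 36 h 0 of 7 against 0%. At an unadjusted p under 0.05 there were 0, 1, 0 and 0 members, against 8, 38, 16 and 7 of all 144. That member was rno-miR-19b at 12 h, at log2 -0.62 ± 0.19 (adjusted p = 0.0564), with the faint array in its group, and without that array it was at -0.39 (adjusted p = 0.233). Within scan day 1 it was -0.13 and within scan day 3, with the faint array against 1 normal liver, -1.19. With quantile normalization, the deposited table, a floor of 1 unit, miRNAs detected on every array, slide as a random block or a trended prior it was called, and so it was without replicate 3 of 12 h after 1/3 PH. Without replicate 1 of normal liver and with the 75th percentile over all probes, both 19 members were called at 12 h, and with that percentile rno-miR-18a at 6 h. With that percentile 14 of all 144 were called at 12 h and 39 at 6 h, where the medians of all were -0.95 and 1.24. At 24 and 36 h after 1/3 PH the 17/20 members lay between log2 -0.16 and 0.19, and rno-miR-18a at 0.28 ± 0.33 and 0.53 ± 0.33.

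**Figure D2:**
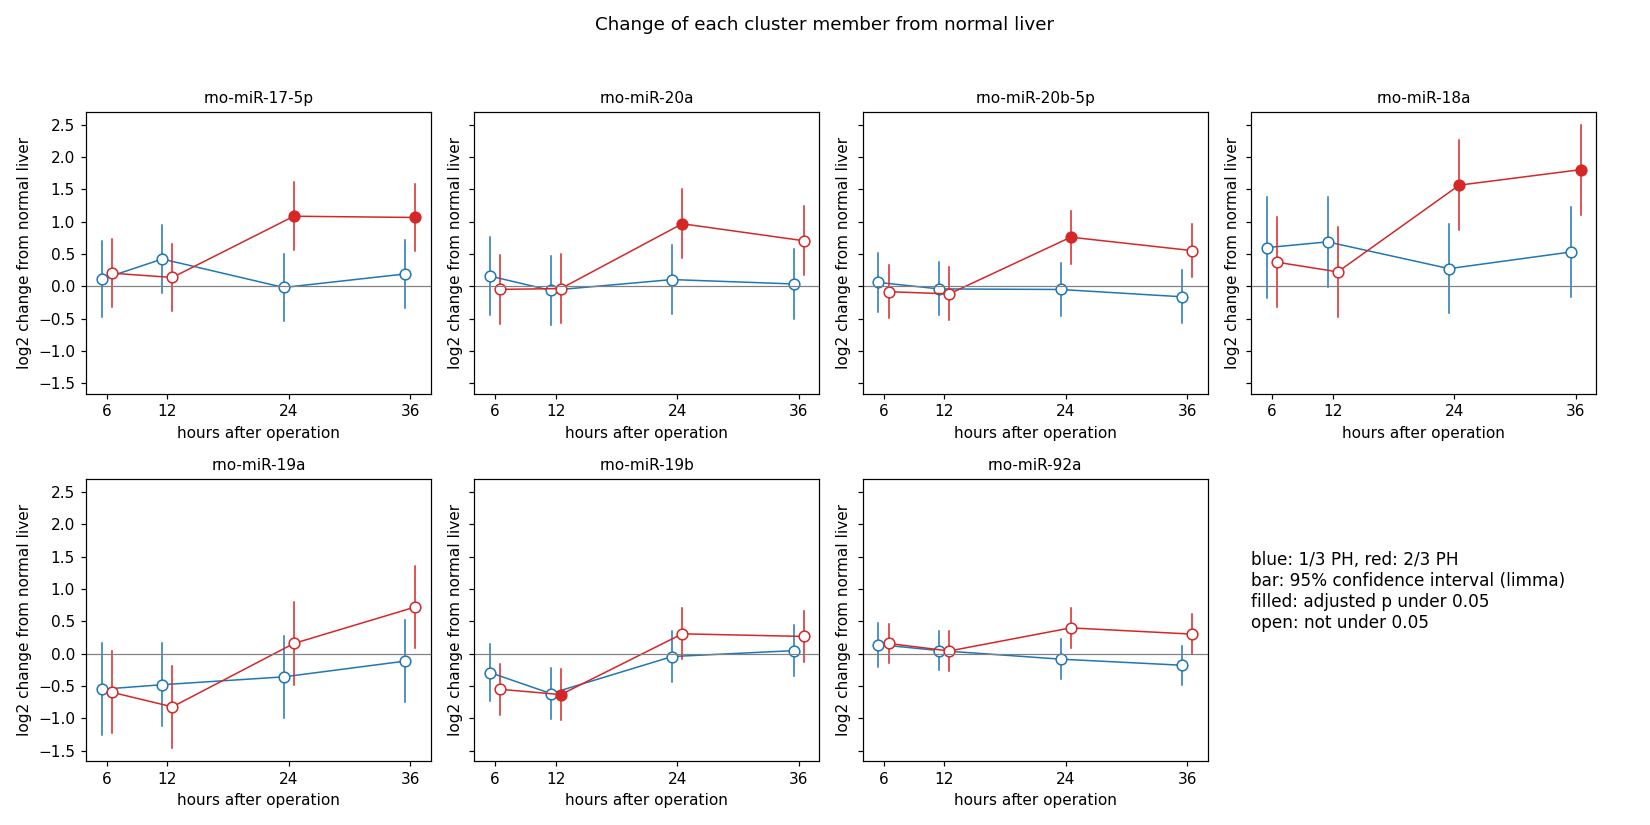
Log2 change of each member from normal liver at 6, 12, 24 and 36 h after 1/3 PH (blue) and 2/3 PH (red), with 95% confidence intervals from limma and filled points at an adjusted p under 0.05. At 24 h after 2/3 PH the points of rno-miR-17-5p, rno-miR-18a, rno-miR-20a and rno-miR-20b-5p are filled, and with scaling by the 75th percentile over all probes the open points of rno-miR-19a, rno-miR-19b and rno-miR-92a at that hour lie below 0.

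Comparing the operations at the same hour asks whether the size of the resection mattered to the clusters. Before 24 h no member passed. By limma 0 of 7 were called at 6 h, against 0% of all 144, and 0 of 7 at 12 h, against 0%, with 0 and 0 members and 3 and 9 of all at an unadjusted p under 0.05. The 95% intervals at 12 h still allow differences, for rno-miR-20a from log2 -0.51 to 0.56. With the 75th percentile over all probes 6 of 7 members, all but rno-miR-17-5p, were called lower after 2/3 PH at 6 h, from log2 -1.53 to -1.25, as were 89 of all 144, whose median was -1.32.

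At 24 h 3 of 7 members were higher after 2/3 PH than after 1/3 PH, against 2.78% of all 144, which is 4 miRNAs. They were rno-miR-17-5p (2.15-fold, log2 1.10 ± 0.25, adjusted p = 0.0217), rno-miR-20b-5p (1.75-fold, 0.81 ± 0.20, adjusted p = 0.0271) and rno-miR-18a (1.29 ± 0.33, adjusted p = 0.0345), with all 3 rats of 2/3 PH above all 3 of 1/3 PH. With a floor of 1 unit rno-miR-17-5p, at 1.14, and rno-miR-18a, at 1.48, did not pass. rno-miR-20a at 0.86 ± 0.26 and rno-miR-92a at 0.48 ± 0.15 (adjusted p = 0.0781 for both) did not pass. Nor did rno-miR-19a at 0.52 ± 0.31 (adjusted p = 0.698). The rats of these 3 did not overlap, for rno-miR-19a by 25.9 units against 25.2. rno-miR-19b, with overlap, was at 0.35 ± 0.19, which became -0.08 with the 75th percentile over all probes. The share of all 144 without overlap was not counted at this hour. At an unadjusted p under 0.05 by limma were 5 members and 15 of all 144. The study itself chose 4 members (rno-miR-17-5p, rno-miR-20a, rno-miR-20b-5p and rno-miR-92a, as named on the axis of its cell cycle figure) by this comparison on these arrays, so the count is not independent evidence of their direction.

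At 36 h 4 of 7 members were higher after 2/3 PH, against 15.3% of all 144. rno-miR-20b-5p differed 1.64-fold (log2 0.71 ± 0.20, adjusted p = 0.0186) and rno-miR-92a 1.40-fold (0.48 ± 0.15, adjusted p = 0.0332). rno-miR-18a, at log2 1.27 ± 0.33 (adjusted p = 0.0172), and rno-miR-17-5p, at 0.87 ± 0.25 (adjusted p = 0.0234), were set against floors on 2 of 3 arrays of 1/3 PH and were at 1.85 and 1.24 with a floor of 1 unit. All 4 had 3 of 3 rats above all 1/3 PH rats. rno-miR-19a was at log2 0.84 ± 0.31 (adjusted p = 0.0801), rno-miR-20a at 0.67 ± 0.26 (adjusted p = 0.103) and rno-miR-19b at 0.22 ± 0.19. These 3 did not pass, and their rats did not overlap either. The share of all 144 without overlap was not counted at this hour. At an unadjusted p under 0.05 by limma were 6 members and 34 of all 144. The members' medians were log2 0.81 at 24 h and 0.71 at 36 h, against 0.01 and -0.12 over all 144.

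With slide as a random block 0 of 7 members were called at either hour by limma, against 1 of all 144 at 24 h and 9 at 36 h. rno-miR-17-5p was then at log2 1.13 and 0.89 and rno-miR-18a at 1.28 and 1.29. With scan day as a block 0 members were called at 24 h, against 1 of all 144, with the same 2 members at 1.11 and 1.18. At 36 h 4 were called, against 13 of all 144, and no scan day holds both operations at that hour. Within scan day 1 at 24 h, with 3 arrays against 2, the differences were 1.04 for rno-miR-17-5p, 1.02 for rno-miR-18a, 0.72 for rno-miR-20b-5p and 0.63 for rno-miR-20a. No slide holds both operations at 24 h or at 36 h, so at a given hour slide and operation cannot be told apart within a slide.

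Single rats and settings also decided these calls. For the fits with an array left out, calls among all 144 are not given. At 24 h 0 of 7 remained called without replicate 2 or 3 of 1/3 PH or replicate 1 of 2/3 PH, 1 without replicate 2 and 2 without replicate 3 of 2/3 PH, and 5 without replicate 2 of 12 h after 1/3 PH or replicate 1 of 12 h after 2/3 PH. At 36 h 0 were called without replicate 3 of 1/3 PH or replicate 1 of 2/3 PH, 1 without replicate 2 of 1/3 PH and 2 without replicate 3 of 2/3 PH. Without scaling 0 members and 0 of all 144 were called at both hours. With normexp correction 0 members were called, against 0 and 1 of all 144. With the 75th percentile over all probes 0 and 1 members were called, against 0 and 5 of all 144.

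All 3 arrays of 24 h after 2/3 PH and all 3 of 36 h after 1/3 PH lay on slide 5 and were read on scan day 1, so this pair shares a slide but differs in operation and in hour. On it 5 of 7 members had all 2/3 PH arrays above all 1/3 PH arrays, against 8.33% of the 144. The log2 differences were 1.03 for rno-miR-18a, 0.93 for rno-miR-20a, 0.92 for rno-miR-20b-5p, 0.89 for rno-miR-17-5p and 0.58 for rno-miR-92a. The 19 group overlapped, at 0.27 for rno-miR-19a and 0.26 for rno-miR-19b.

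**Figure D3:**
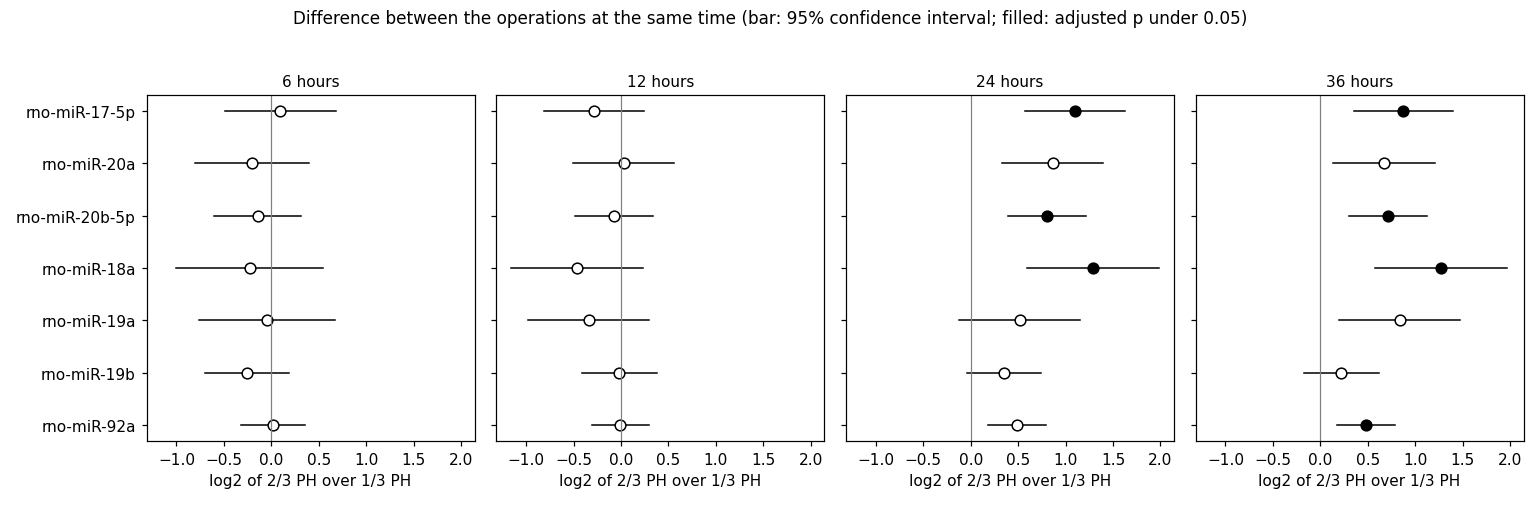
Log2 difference of 2/3 PH from 1/3 PH for each member at 6, 12, 24 and 36 h, with 95% confidence intervals from limma and filled points at an adjusted p under 0.05. Filled points appear at 24 h for 3 members and at 36 h for 4. With slide as a random block 0 members are called, against 1 and 9 of all 144.

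Taking 24 and 36 h together against 6 and 12 h asks how the members moved in time after each operation. After 2/3 PH 6 of 7 members rose and 0 fell, against 34.7% of all 144. rno-miR-18a rose over early values that lay at the floor on 6 of 6 arrays, so that the size depends on the floor (log2 1.39 ± 0.23, adjusted p = 0.000116, with 3.38 at a floor of 1 unit and 6.43 with the deposited table). rno-miR-19a rose by log2 1.15 ± 0.22 (adjusted p = 0.000297) and rno-miR-19b 1.84-fold (0.88 ± 0.13, adjusted p = 3.76e-05). The 17/20 members rose by log2 0.90 ± 0.18 for rno-miR-17-5p, 0.88 ± 0.18 for rno-miR-20a and 0.76 ± 0.14 for rno-miR-20b-5p, while rno-miR-92a was at 0.25 ± 0.10 (adjusted p = 0.0700). All 6 calls held without any single array, with slide as a random block and with scan day as a block. They numbered 3 without scaling, 1 with the 75th percentile over all probes, 2 with normexp correction and 4 with the deposited table, against 11, 4, 7 and 36 of all 144. With that table rno-miR-19a, at log2 2.79 (adjusted p = 0.0674), and rno-miR-17-5p, at 2.47 (adjusted p = 0.0800), did not pass. For both, 1 array at 6 h and 1 at 12 h lay at the floor, and a floor of 1 unit gave 1.33 and 1.20.

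After 1/3 PH 1 of 7 members rose from early to late hours, against 9.72% of all 144. It was rno-miR-19b, at log2 0.46 ± 0.14 (1.37-fold, adjusted p = 0.0451), and this call was lost without any 1 of 21 of the 26 arrays and with slide or scan day as a block (log2 0.42 and 0.46). The 17/20 members lay between -0.18 and 0.02 and rno-miR-92a at -0.23 ± 0.11. Without a call, rno-miR-17-5p turned from -0.18 to 0.28 with a floor of 1 unit and 0.97 with the deposited table, and rno-miR-20b-5p from -0.12 to 0.12 with the deposited table. rno-miR-18a was at -0.24 ± 0.25, a value made of floors that turned to 1.96 with a floor of 1 unit and to 3.46 with the deposited table, with calls in both.

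The difference between the operations in this change was tested as an interaction, and 3 of 7 members passed, against 6.94% of all 144. They were rno-miR-18a (log2 1.63 ± 0.34, adjusted p = 0.00628), rno-miR-17-5p (1.08 ± 0.26, adjusted p = 0.0107) and rno-miR-20b-5p (0.87 ± 0.20, adjusted p = 0.0106). The interaction takes in the comparison at 24 h by which the study chose 4 members, rno-miR-17-5p and rno-miR-20b-5p among them. Its count is therefore not independent evidence either. rno-miR-20a was at 0.85 ± 0.26 and rno-miR-92a at 0.48 ± 0.15 (adjusted p = 0.0543 for both), rno-miR-19a at 0.87 ± 0.31 (adjusted p = 0.104) and rno-miR-19b at 0.42 ± 0.19 (adjusted p = 0.215). With slide as a random block 6 of 7 passed, with scan day as a block 5, and with slide as a fixed block 0. Over all 144 miRNAs the same settings gave 14, 11 and 1. With the fixed block of slide rno-miR-18a was at log2 1.72, rno-miR-17-5p at 1.25 and rno-miR-20b-5p at 0.96. With a floor of 1 unit rno-miR-20b-5p alone passed, with rno-miR-18a at 1.41 and rno-miR-17-5p at 0.91. With the deposited table rno-miR-92a alone passed, at 0.45 (adjusted p = 0.0239), with rno-miR-18a at 2.96 (adjusted p = 0.256), rno-miR-17-5p at 1.51 (adjusted p = 0.580) and rno-miR-20b-5p at 0.62 (adjusted p = 0.244). With quantile normalization 4 passed, without rno-miR-20b-5p. With the total gene signal rno-miR-20b-5p alone passed, and with the 75th percentile over all probes rno-miR-18a alone. Over all 144 these settings gave 9, 8 and 1. The floor of 1 unit gave 9 of all 144, and 5 were called with the deposited table. Without scaling and with normexp correction 0 members and 0 of all 144 passed. The count of members was 5 without replicate 1 of 6 h or of 12 h after 2/3 PH, 6 without replicate 2 of 12 h after 1/3 PH and 2 without replicate 2 of 6 h after 1/3 PH.

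**Figure D4:**
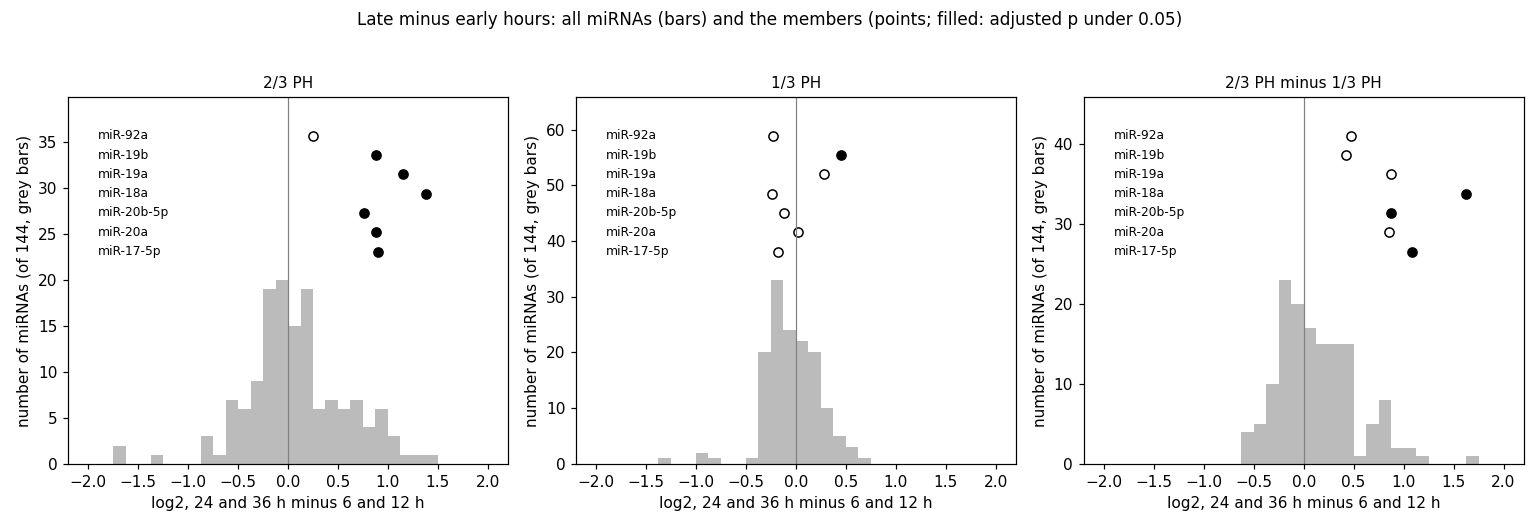
Number of miRNAs (grey bars, 144 in all) by their log2 change from 6 and 12 h to 24 and 36 h after 2/3 PH, after 1/3 PH, and by the difference of these changes, with the 7 members as points, filled at an adjusted p under 0.05. After 2/3 PH the members lie from 0.25 to 1.39 and after 1/3 PH from -0.24 to 0.46, where the point of rno-miR-18a turns to 1.96 with a floor of 1 unit.

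Within an array the scale factor cancels, so the seed groups were also set against the mean of the 17/20 group on the same array, as a description without a test. rno-miR-92a stood at log2 3.04 ± 0.20 (SD, n = 3) above that mean in normal liver, 2.50 ± 0.27 at 24 h and 2.57 ± 0.07 at 36 h after 2/3 PH, a shift of -0.54 and -0.47, and all 6 late 2/3 PH arrays lay below all 20 others. With normexp correction the shift at 24 h was -0.10. At 6 and 12 h after 2/3 PH its shift was 0.13 and 0.04, and after 1/3 PH it ran from -0.20 to 0.03.

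The 19 group was at 1.32 ± 0.49 in normal liver and at 0.72 ± 0.42, 0.59 ± 0.30, 0.61 ± 0.19 and 1.03 ± 0.17 at 6, 12, 24 and 36 h after 2/3 PH. After 1/3 PH it was at 0.78 ± 0.29, 0.66 ± 0.03, 1.10 ± 0.04 and 1.26 ± 0.15. The means at 6 and 12 h after both operations lay below that of normal liver, and at 24 h after 2/3 PH its 3 arrays lay below all 3 of 1/3 PH. Its shift from normal liver at 24 h after 2/3 PH, -0.71, became -0.27 with normexp correction, and that at 36 h, -0.28, became -0.565 without replicate 1 and -0.11 without replicate 3 of normal liver. Its normal livers spread from 0.75 to 1.67, mostly through rno-miR-19a, and overlapped every group except 12 h after 1/3 PH, whose 3 arrays lay below them. For rno-miR-19b alone they ran from 3.24 to 3.61, above all arrays of 2/3 PH at each hour and of 6 and 12 h after 1/3 PH, with shifts of -0.58, -0.63, -0.63 and -0.51 at 6, 12, 24 and 36 h after 2/3 PH, where those of rno-miR-19a were -0.62, -0.82, -0.78 and -0.06. Against the mean of rno-miR-20a and rno-miR-20b-5p alone, normal livers of rno-miR-19b ran from 2.21 to 2.62. Replicate 3 at 6 h (2.29) and replicate 3 at 36 h (2.31) after 2/3 PH lay inside that range. rno-miR-19a and rno-miR-19b, alike but for a single base, had a log2 difference of -4.21 ± 0.67 in normal liver. Replicate 1 of normal liver was at -4.98 and replicates 2 and 3 at -3.76 and -3.88. At 36 h after 2/3 PH the difference was -3.75 ± 0.10, near replicates 2 and 3, and the other groups lay from -4.52 to -4.07.

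rno-miR-18a was at -2.40 ± 0.29 in normal liver, -1.78 ± 0.12 at 24 h and -1.37 ± 0.20 at 36 h after 2/3 PH, a shift of 0.63 and 1.03. In groups with mostly floors the shift came close to that at 24 h, with 0.49, 0.58 and 0.51 at 6, 12 and 36 h after 1/3 PH, and it was 0.26 at 24 h after 1/3 PH and 0.35 and 0.23 at 6 and 12 h after 2/3 PH. Floors in both terms shape this ratio. With normexp correction the shifts became -0.09 and 0.23, with the total gene signal 0.13 and 0.52, with a floor of 1 unit 1.19 and 1.60 and with the deposited values 4.17 and 4.45. Against the mean of rno-miR-20a and rno-miR-20b-5p alone, a reference added after the data were seen, the shifts at 24 and 36 h after 2/3 PH were 0.70 and 1.18 for rno-miR-18a, against 0.74 and 0.59 at 12 and 36 h after 1/3 PH, -0.63 and -0.14 for the 19 group and -0.47 and -0.33 for rno-miR-92a.

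**Figure D5:**
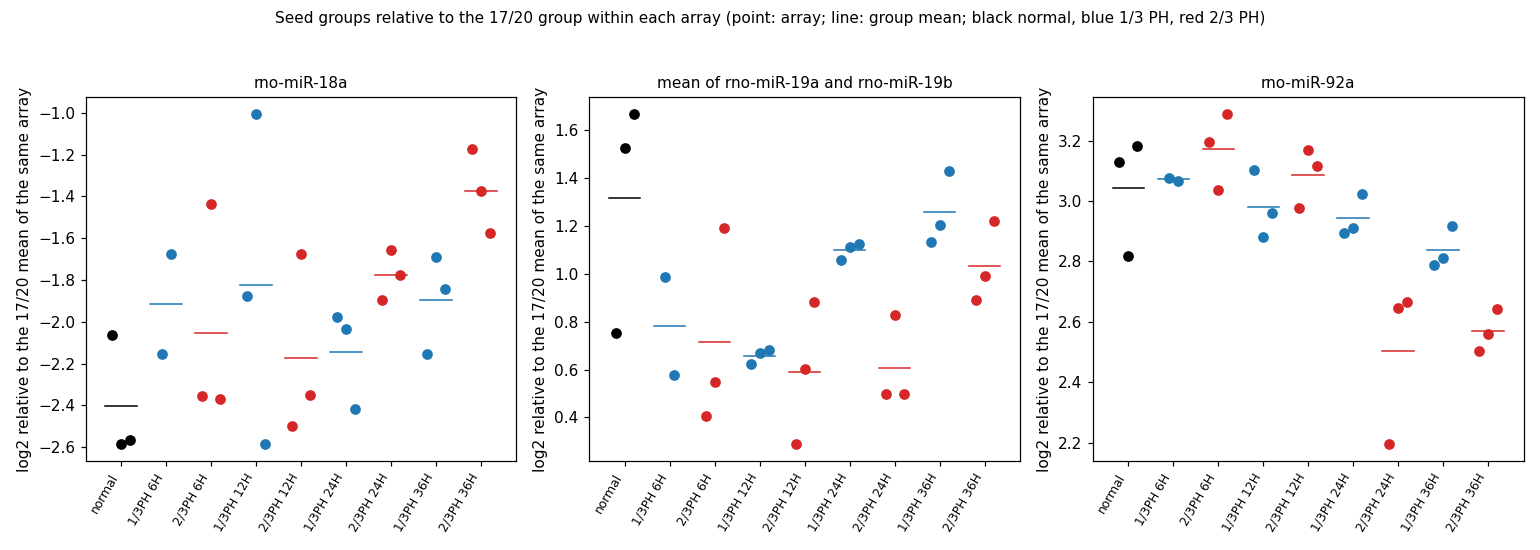
Log2 signal of rno-miR-18a, of the mean of rno-miR-19a and rno-miR-19b, and of rno-miR-92a relative to the mean of the 17/20 members on the same array, by group, with 1 point per array and lines at group means. rno-miR-92a lies at 3.04 in normal liver and at 2.50 and 2.57 at 24 and 36 h after 2/3 PH, and rno-miR-18a at -2.40, -1.78 and -1.37, where its shift at 24 h turns to -0.09 with normexp correction.

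Single probes were compared between 24 h after 2/3 PH and normal liver. Both probes of rno-miR-20a moved alike, by log2 0.94 and 0.98, as did both of rno-miR-20b-5p, by 0.66 and 0.79, and both of rno-miR-92a, by 0.35 and 0.40. For rno-miR-17-5p and rno-miR-18a, the probes that rose above the floor moved by 1.03 and 1.52. The probes of rno-miR-19b moved by 0.32 and 0.18. Those of rno-miR-19a moved by 0.15 and 0.02, the second of them above the floor on only 6 arrays.

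Other products of the clusters were scarce. Of 14 listed, among them the opposite strands and rno-miR-363 of the X-linked cluster, 12 were on the array, 11 of those were detected on 0 arrays, rno-miR-363 included, and rno-miR-17-1-3p on 1, replicate 2 of 6 h after 1/3 PH. rno-miR-106a and rno-miR-18b were not on the array. Of relatives with the seed of the 92 group, rno-miR-92b and rno-miR-32 were detected on 0 arrays.

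The paralogous cluster on chromosome 12 encodes rno-miR-106b and rno-miR-93, with the 17/20 seed, and rno-miR-25, with the 92 seed. Its sequences show the same seeds in capitals.
rno-miR-106b: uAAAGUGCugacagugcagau
rno-miR-93: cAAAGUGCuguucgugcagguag
rno-miR-25: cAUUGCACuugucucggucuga
All 3 rose at 24 h after 2/3 PH, by log2 0.56 ± 0.15 for rno-miR-106b, 0.96 ± 0.13 for rno-miR-93 and 0.48 ± 0.16 for rno-miR-25, and at 36 h, by 0.74, 1.15 and 0.58. Of all 144, 18.1% and 18.8% were called at these hours. Between operations 1 of 3, rno-miR-93 at 0.87 ± 0.13, was higher after 2/3 PH at 24 h and 3 of 3 at 36 h, against 2.78% and 15.3% of all 144. From early to late hours 3 of 3 rose after 2/3 PH and 1 of 3, rno-miR-106b, after 1/3 PH, against 34.7% and 9.72% of all 144. The interaction was passed by 2 of 3, against 6.94%. The study chose these 3 as well by the comparison of operations at 24 h, on these arrays.

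Over the 26 arrays, which include the groups that differ, the highest Pearson r between members was that of rno-miR-20a and rno-miR-20b-5p, at 0.93, and 0.81 for deviations from group means. rno-miR-92a, with another seed, had 0.825 and 0.88 with rno-miR-20a and 0.85 and 0.83 with rno-miR-20b-5p. rno-miR-17-5p had 0.89 and 0.66 with rno-miR-18a, and within its own seed group 0.68 and 0.22 with rno-miR-20a and 0.75 and 0.32 with rno-miR-20b-5p. The other pair of 1 seed, rno-miR-19a and rno-miR-19b, had 0.73 and 0.38, and rno-miR-18a and rno-miR-19b had 0.35 and -0.40. Of the 78 other miRNAs detected on all arrays, the ones most like rno-miR-20a were rno-miR-345-5p and rno-miR-25, at 0.77 and 0.76, and for rno-miR-20b-5p they were rno-miR-345-5p and rno-miR-21, at 0.83 and 0.75. rno-miR-92a was most like rno-miR-345-5p and rno-miR-25, at 0.70 and 0.63. rno-miR-19b was most like rno-miR-101b and rno-miR-29b, at 0.92 and 0.90, and rno-miR-19a like rno-miR-21 and rno-miR-29b, at 0.81 and 0.77. For rno-miR-17-5p they were rno-miR-21 and rno-miR-7a, at 0.73 and 0.72, and for rno-miR-18a rno-miR-34a and rno-miR-21, at 0.69 and 0.68, of which the first had -0.06 for deviations from group means. These values rest on arrays that share slides and scale factors, and for rno-miR-17-5p, rno-miR-18a and rno-miR-19a on floors.

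Markers of liver cell types were followed beside the members. For each list the signals of an array were summed and log2 was taken, and this value is called the sum. The brightest marker of a list weighs most in it. Of 4 hepatocyte markers 3 were on the array and detected on all arrays, led by rno-miR-122, and their sum in normal livers was 15.36, 15.11 and 15.30, at 24 h after 2/3 PH 14.99, 15.25 and 15.22 and at 36 h 15.17, 15.26 and 15.35. rno-miR-192 among them was lower at 12 and 24 h after 2/3 PH and at 12 h after 1/3 PH, by limma, it rose from early to late hours after 1/3 PH, and 0 of 3 were called at 36 h after 2/3 PH, where 0 of 3 had an unadjusted p under 0.05. In the other 6 groups the sum ran from 15.02 to 15.46.

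Of 6 leukocyte markers 5 were on the array and 4 detected, led by rno-miR-146a, with rno-miR-142-5p on 0 arrays. Their sum was 7.79, 8.00 and 7.71 in normal livers, 7.24, 7.56 and 7.25 at 24 h and 7.55, 7.58 and 7.63 at 36 h after 2/3 PH, and 7.48 to 8.08 in the other groups. rno-miR-142-3p and rno-miR-150 fell at 24 h and rno-miR-150 at 36 h after 2/3 PH. The 17/20 members and rno-miR-18a were called at 24 h, and at 36 h rno-miR-17-5p and rno-miR-18a alone. Without a call, rno-miR-142-3p was already at mean log2 5.09 and 5.18 at 6 and 12 h after 2/3 PH, against 5.84 in normal liver. rno-miR-150 and rno-miR-146a fell from early to late hours after 2/3 PH. The part of leukocytes in the members' result was not tested.

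Of 5 biliary epithelial markers 3 were detected, led by rno-miR-200b, with rno-miR-200c and rno-miR-141 on 0 arrays. Their sum was 6.02, 5.99 and 5.05 in normal livers, 6.77, 6.27 and 6.75 at 24 h and 7.19, 7.07 and 6.59 at 36 h after 2/3 PH, and at 12 h after 1/3 PH, where 0 members were called, 6.71, 7.11 and 6.83. It ran from 5.48 to 6.81 in the other groups. 2 of 3 rose at 24 h and 3 of 3 at 36 h after 2/3 PH, and 2 of 3 at 12 h after 1/3 PH. Where members were called, 3 of 3 also rose from early to late hours after 2/3 PH, and 1 of 3, rno-miR-200b, was higher after 2/3 PH than after 1/3 PH at 36 h. Their part in the members' result was not tested.

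Of 2 red cell markers rno-miR-451 was detected on all arrays and rno-miR-144 on 1, and 0 were called by limma over the 15 comparisons, with 3 at an unadjusted p under 0.05. Their sum was 6.78, 6.56 and 6.64 in normal livers, 6.62, 6.73 and 5.58 at 24 h and 6.00, 6.17 and 6.51 at 36 h after 2/3 PH, and 5.56 to 8.29 elsewhere. Of 7 endothelial and stellate cell markers 6 were detected, led by rno-miR-126, with rno-miR-145 on 0 arrays and 0 calls among 5 tested over the 15 comparisons, with 1 at an unadjusted p under 0.05. Their sum was 10.03, 9.74 and 9.73 in normal livers, 10.003, 9.81 and 9.66 at 24 h and 9.60, 9.64 and 9.69 at 36 h after 2/3 PH, and 9.34 to 10.07 elsewhere. Their part in the members' result was not tested.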

How the data were processed

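Right-lobe liver RNA of 26 rats was measured on Cy3 Agilent miRNA arrays. The authors scanned them and deposited fluorescence intensity per spot from Feature Extraction 10.7.3.1, background-subtracted and detrended, not normalized between arrays. The authors also deposited a log2 table already normalized between arrays by an unstated method, used here only as an alternative. Unmarked spots of a probe were averaged, probes of a miRNA summed (677 miRNAs, 1644 probes), arrays scaled by the 75th percentile over 109 probes well above background on all arrays, low signals set to the array's floor and log2 taken. The tests used limma 3.58.1 in R 4.3.3 (lmFit, eBayes, 9 groups, 15 contrasts) on 144 miRNAs, those with detection throughout some group, with Benjamini-Hochberg adjustment within each contrast. Residual degrees of freedom were 17, prior degrees of freedom 2.32 and the prior SD 0.231. The slide correlation was 0.195. Python 3.11.15, numpy 2.4.6, pandas 2.3.3 and matplotlib 3.10.9 did the rest. Named are the 7 members, listed miRNAs, and for each member the 2 miRNAs most like it. The fit was tested on simulated data. Members and lists were chosen with earlier results of these data known. Scan day as a block, the reference of rno-miR-20a and rno-miR-20b-5p for seed groups and leaving out arrays for seed groups were added after seeing the data.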

Additional observations from a re-analysis of the deposited data

Results flagged for a closer look

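For 3 members the change from 6 and 12 h to 24 and 36 h differed between the operations by the interaction test. The difference, 2/3 PH minus 1/3 PH, was log2 1.083 for rno-miR-17-5p, 1.627 for rno-miR-18a and 0.8709 for rno-miR-20b-5p. The study chose rno-miR-17-5p and rno-miR-20b-5p by the comparison of operations at 24 h. That comparison is part of this test, so their results are not independent evidence. rno-miR-17-5p and rno-miR-18a lie at the floor on 10 and 16 of the 26 arrays, and with a floor of 1 signal unit they were at 0.91 and 1.41 and did not pass. With the deposited log2 table none of the 3 passed, with rno-miR-20b-5p at 0.62, and with quantile normalization rno-miR-20b-5p did not pass.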

How the results depend on the processing

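Member calls against normal liver after 1/3 PH, 0 as reported, became 3 with the 75th percentile over all probes, and 1 with quantile normalization, the deposited log2 table, a floor of 1 signal unit, miRNAs detected on every array, slide as a random block or a trended prior. With that percentile 39 of all 144 were called at 6 h and 14 at 12 h. At 12 h 15 of all 144 were called with quantile normalization, 6 with the deposited table and 12 with a floor of 1 unit. There were 10 with slide as a random block and 7 with a trended prior, against 6 as reported. Of the 82 miRNAs detected on every array, 8 were called at 12 h. Without single arrays they ranged from 0 to 2. Calls after 2/3 PH, 7 as reported, became 1 without scaling, 0 with the 75th percentile over all probes, 0 with normexp correction, 4 with the software's total gene signal, 4 with the deposited table and 1 with slide as a fixed block, which could be fitted in 3 of 4 contrasts. Without single arrays they ranged from 3 to 10. With the 75th percentile over all probes calls between operations were again 7, as reported, but 6 of them were lower values after 2/3 PH at 6 h and 1 lay at 36 h. They became 0 without scaling, 0 with normexp correction, 1 with the total gene signal, 4 with the brightest probe, 2 with the deposited table, 3 with miRNAs detected on every array, 0 with slide as a random block, 0 with slide as a fixed block (2 of 4 contrasts) and 4 with scan day as a block. At 24 and 36 h, 1 and 12 of all 144 were called with the total gene signal and 1 and 16 with the brightest probe. There were 0 and 10 with the deposited table, and 1 and 16 of the 82 detected on every array. Without single arrays they ranged from 3 to 9. Calls of late against early hours, 10 as reported, became 3 without scaling, 2 with the 75th percentile over all probes, 2 with normexp correction, 5 with the total gene signal, 6 with the deposited table and 0 with slide as a fixed block (1 of 3 contrasts). With slide as a fixed block that contrast was the interaction, where 1 of all 144 passed. The filter on every array leaves out rno-miR-17-5p, rno-miR-18a and rno-miR-19a.

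The shift of rno-miR-18a against the 17/20 group at 24 h after 2/3 PH, 0.63 as reported, became -0.0894 with normexp correction, 0.1273 with the total gene signal, 4.1742 with the deposited table and 1.1936 with a floor of 1 unit. At 36 h, from 1.03, it became 0.2317, 0.5163, 4.4545 and 1.5962 in the same order. The shift of rno-miR-92a at 24 h became -0.10 with normexp correction. The values of rno-miR-18a from early to late hours after 1/3 PH turned to 3.4626 with the deposited table and 1.9622 with a floor of 1 unit, and that of rno-miR-92a between operations at 6 h to -1.2515 with the 75th percentile over all probes. The causes were not tested.

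For the 24 called differences of single members, 133 of 329 values under 15 settings of processing and model lost the call, among them 20 of 24 without scaling, 21 with the 75th percentile over all probes, 22 with normexp correction and 15 with the deposited table. Of 624 values without 1 array each, many of them from groups outside the comparison, 67 lost the call. The direction turned in 0. The 75th percentile over all probes lies at the background, 0.334 units on the lowest array. Signal over background limits rno-miR-18a, rno-miR-17-5p and rno-miR-19a, whose low values are floors, so that their folds depend on the floor. Leaving out an array at 6 h after 1/3 PH leaves a single array, assumed to vary like the other groups.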
